A study of Mus musculus with 9 samples.

Results

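Adipocyte genes were followed in injured skeletal muscle of young and old mice. The 10 genes were picked by name as classical fat cell genes and not by their values, and each was found by its Ensembl identifier, so that 10 of the 54532 genes in the count table were described. They were Plin1, Plin4 and Cidec of the lipid droplet, the secreted proteins Adipoq, Cfd, Lep and Retn, the fatty acid carrier Fabp4, the transcription factor Pparg and the uncoupling protein Ucp1. The 9 libraries came from damaged muscle of C57/BL6J mice, 3 from young mice given PBS (young PBS 1, 2 and 3), 3 from old mice given PBS (old PBS 2, 3 and 4) and 3 from old mice given recombinant Meteorin-like by intramuscular injection (old rMETRNL 1, 2 and 3). Young mice were 3 to 4 months old and old mice 24 to 26 months old, and the tibialis anterior muscle of all groups was injured with barium chloride. The comparisons asked how age, and treatment of old muscle with Meteorin-like, a cytokine-like secreted protein also known to act on fat, changed the RNA of regenerating muscle. The series gives collection at day 4 and the study's text gives day 8, and the labels name a cell suspension where the study's text names whole muscle. Muscle fibre genes (Ckm, Acta1, Myh4, Myh1, Myh2, Myh3 and Myh8) summed to between 58601 and 90470 CPM, the counts of a gene scaled to a common library total, in the 9 libraries. The labels do not say whether replicates were separate animals. The p-values therefore rest on the spread between these libraries, which may not be the spread between animals.

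White fat cells keep triglyceride in 1 large droplet coated with perilipins, and they secrete hormones such as adiponectin and leptin. The nuclear receptor PPAR gamma drives fat cell formation together with C/EBP factors, and many fat cell genes are its targets. In skeletal muscle, fibro-adipogenic progenitors support repair after injury and can also become fat cells, and fat tissue lies between muscles and along nerves and vessels. Of the 10 genes, some are transcribed almost only in fat cells (Adipoq, Plin1, Cidec, Lep), while Fabp4 is also made by capillary endothelium and macrophages, Pparg by macrophages, and Plin4 by muscle fibres.

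Upstream sequence is shown for 4 members that moved together across libraries, since shared letters there can be compared across genes. Plin1, which moved with them, is not shown because 127 bases of its window lay in annotated exons. RefSeq starts on GRCm38.p6 were matched for 9 of 10 members, all but Fabp4. The 250 bases before the start are printed 5′ to 3′ on the strand of the gene, with motif matches in capitals, for Adipoq (chr16:23146286-23146535, plus strand), Cfd (chr10:79890603-79890852, plus strand), Retn (chr8:3655520-3655769, plus strand) and the first start of Cidec (chr6:113435761-113436010, minus strand). None of these 4 windows overlapped an annotated exon.

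Adipoq: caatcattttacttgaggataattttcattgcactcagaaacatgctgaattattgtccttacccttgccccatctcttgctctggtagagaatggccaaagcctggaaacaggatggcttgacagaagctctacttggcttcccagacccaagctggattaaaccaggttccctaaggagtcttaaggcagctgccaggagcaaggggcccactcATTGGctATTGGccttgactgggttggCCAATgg

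Cfd: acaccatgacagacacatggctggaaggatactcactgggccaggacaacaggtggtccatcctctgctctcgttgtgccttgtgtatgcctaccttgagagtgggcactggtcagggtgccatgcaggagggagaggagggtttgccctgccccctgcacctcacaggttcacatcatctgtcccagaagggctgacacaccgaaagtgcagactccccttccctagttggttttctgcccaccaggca

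Retn: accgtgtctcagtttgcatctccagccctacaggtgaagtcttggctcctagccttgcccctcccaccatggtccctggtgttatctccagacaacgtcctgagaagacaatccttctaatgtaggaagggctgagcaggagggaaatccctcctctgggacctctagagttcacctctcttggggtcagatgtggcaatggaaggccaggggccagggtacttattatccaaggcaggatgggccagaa

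Cidec: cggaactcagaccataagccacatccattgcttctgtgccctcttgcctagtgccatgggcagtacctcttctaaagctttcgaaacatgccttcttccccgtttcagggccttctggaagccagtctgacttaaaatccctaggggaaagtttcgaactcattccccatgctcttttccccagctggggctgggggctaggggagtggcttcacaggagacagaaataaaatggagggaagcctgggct

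Both strands of each window were searched for 5 motifs. The half-site of nuclear receptors was read as AGGTCA, and the PPAR response element, which repeats it, overlaps that search. The box named CCAAT was read together with its minus-strand form, and so was the TATA box TATAAA. The motif of C/EBP factors was the palindrome TTGCGCAA. The Adipoq window held CCAAT 3 times, with the first base of the match 34 and 27 bases before the start on the minus strand and 7 bases before it on the plus strand. CCAAT was in 33.8% of all 32851 promoter windows of this length. The windows of Cfd, Retn, Plin1 and Cidec held none of the 5 motifs. TTGCGCAA lay 55 bases before the start of Lep and was in 0.164% of all windows. AGGTCA, in 14.0% of all windows, lay 14 bases before the start of Ucp1 and 28 and 9 bases before the first and second starts of Pparg. The second Pparg window also held TATAAA, in 12.4% of all windows, and CCAAT 83 bases before its start. CCAAT further lay 18 bases before the start of Plin4 and 144 and 22 bases before the third start of Pparg. Of the first and second Pparg windows, 193 and 57 bases lay in annotated exons, and of the Plin4 window 21 bases. The PPAR response element was in 0.0335% of all windows and in none of the windows of the 9 matched members. These matches describe letters in a window and not factor binding.

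Total counts ran from 16238700 to 22522560 per library, and CPM values were scaled by TMM, a normalization that sets the bulk of genes level between libraries. A count of 3, taken as the floor of detection, equals 0.131 to 0.202 CPM, and it covers counting error only. Libraries stood apart in RNA of other tissues. All 3 old PBS libraries carried brain markers (Mobp, Gfap, Slc1a2, Snap25, Syt1 and Mog) at a summed 43.6 to 103 CPM and liver markers (Alb, Apoa1, Serpina1a, Fga and Ttr) at 7.36 to 77.5 CPM, against at most 0.943 and 0.214 CPM in the other 6. By edgeR, Mobp, Gfap, Slc1a2 and Ttr were higher in old PBS than in young PBS, and these genes with Snap25 and Apoa1 were higher in old PBS than in old rMETRNL. Skin keratinocyte markers summed to 127 CPM in young PBS 2 and to 2.29 to 5.66 CPM elsewhere. Leaving out old PBS 3 raised the number of genes called from 10 to 401 between old PBS and young PBS and from 17 to 1560 between old rMETRNL and old PBS, so both counts depend on that library.

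All 10 adipocyte genes except Ucp1 had counts in every library. Per kilobase of merged exons, the mean CPM over the 9 libraries was 59.7 for Cfd, 44.2 for Fabp4, 22.5 for Plin4 and 12.5 for Adipoq. It was 4.45 for Cidec, 2.64 for Plin1, 2.59 for Pparg, 1.97 for Retn, 0.970 for Lep and 0.018 for Ucp1. Neighbours in this order did not separate where Cfd exceeded Fabp4 in 6 of 9 libraries, and where Plin1 exceeded Pparg and Pparg exceeded Retn in 5 of 9. Each of the other neighbouring pairs kept its order in 8 or 9 libraries. The merged exons of Fabp4 took up 4489 bases, the whole span of the gene. Its value per kilobase can therefore be too low, and its place in this order is uncertain.

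Adipoq (chromosome 16, 23146536 to 23158028, plus strand of GRCm38) encodes adiponectin, a hormone released by fat cells that raises insulin sensitivity. Its level was 14.6, 23.3 and 3.66 CPM in young PBS 1, 2 and 3. It was 5.79, 34.9 and 18.4 CPM in old PBS 2, 3 and 4, and 29.9, 16.1 and 9.14 CPM in old rMETRNL 1, 2 and 3. Each group held both low and high libraries, and the groups overlapped. Old PBS 3 was 9.51 times as high as young PBS 3.

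The perilipin that coats the storage droplet, Plin1 (chromosome 7, 79720218 to 79732903, minus strand), followed the same order of libraries closely. It stood at 9.99, 16.1 and 3.10 CPM in young PBS 1, 2 and 3, at 7.87, 26.6 and 11.0 CPM in old PBS 2, 3 and 4, and at 19.4, 11.4 and 5.16 CPM in old rMETRNL 1, 2 and 3. Old PBS 3 was again the highest and young PBS 3 the lowest. Cidec (chromosome 6, 113424634 to 113435760, minus strand), whose product fuses small droplets into a large one, read 5.20, 9.59 and 2.76 CPM in young PBS, 4.10, 15.5 and 9.998 CPM in old PBS, and 16.7, 6.84 and 3.57 CPM in old rMETRNL, in the same order of libraries. Here old rMETRNL 1 was the highest, and the 3 groups overlapped.

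Cfd (chromosome 10, 79890853 to 79892655, plus strand) encodes adipsin, the serine protease that activates the alternative complement pathway. It had the widest range of the tested members, 11.7-fold from its lowest to its highest library. The levels were 50.3, 79.9 and 10.5 CPM in young PBS 1, 2 and 3, 15.5, 57.8 and 66.2 CPM in old PBS 2, 3 and 4, and 123, 58.4 and 33.3 CPM in old rMETRNL 1, 2 and 3. Young PBS 3 and old PBS 2 were the lowest libraries and old rMETRNL 1 stood above all others.

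Retn (chromosome 8, 3655770 to 3660110, plus strand) encodes resistin, in mice a fat cell hormone that lowers insulin sensitivity. It stood at 1.85, 4.27 and 0.959 CPM in young PBS 1, 2 and 3, at 1.41, 5.59 and 3.90 CPM in old PBS 2, 3 and 4, and at 5.57, 2.77 and 1.67 CPM in old rMETRNL 1, 2 and 3. Lep (chromosome 6, 29060220 to 29073877, plus strand) encodes leptin, the hormone that reports fat stores to the brain, and read 4.16, 4.38 and 1.52 CPM, then 2.83, 4.85 and 3.58 CPM, then 4.02, 2.54 and 1.40 CPM in the same libraries. Both hormones were highest in old PBS 3. The lowest library was young PBS 3 for Retn and old rMETRNL 3 for Lep, and both genes overlapped between all groups.

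**Figure D1:**
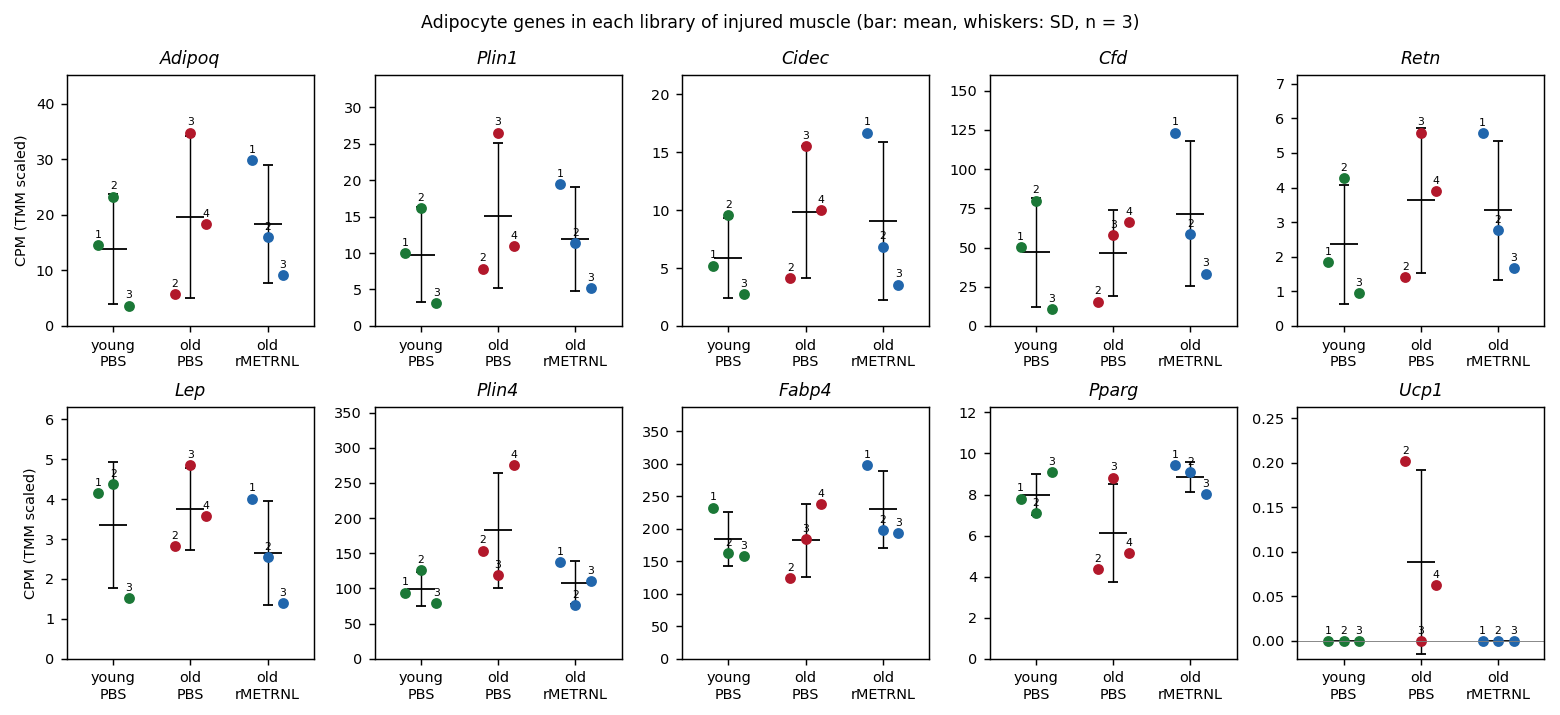
CPM (TMM scaled, linear axis) of the 10 genes in each library, with the replicate number beside each point, a bar at the mean of 3 libraries and whiskers of 1 SD. Within a group the first 6 genes spread widely, as for Adipoq from 3.66 to 23.3 CPM in young PBS, and the groups overlap for all 10 genes.

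Plin4, Fabp4 and Pparg spread less within groups than the genes above. Plin4 (chromosome 17, 56100591 to 56109803, minus strand), a perilipin of nascent droplets, stood at 94.0, 126 and 78.6 CPM in young PBS 1, 2 and 3, at 154, 119 and 275 CPM in old PBS 2, 3 and 4, and at 138, 76.3 and 111 CPM in old rMETRNL 1, 2 and 3. Old PBS 4 stood above all other libraries, and old PBS 3, with the most Adipoq, had the least Plin4 of its group. Fabp4 (chromosome 3, 10204088 to 10208576, minus strand), which carries fatty acids within the cell, read 232, 162 and 158 CPM in young PBS, 124, 184 and 237 CPM in old PBS and 297, 198 and 194 CPM in old rMETRNL. Pparg (chromosome 6, 115360951 to 115490399, plus strand), the master regulator of fat cell formation, read 7.80, 7.10 and 9.08 CPM in young PBS, 4.37, 8.82 and 5.16 CPM in old PBS and 9.42, 9.10 and 8.01 CPM in old rMETRNL. Old PBS 2 was the lowest library for both, and old PBS 2 and 4 lay below every other library for Pparg, though old PBS 3 did not.

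Ucp1 (chromosome 8, 83290352 to 83298452, plus strand), the proton carrier that lets brown fat make heat, had 3 counts in old PBS 2, 1 count in old PBS 4 and 0 counts in the other 7 libraries. These 4 counts in all lay at or under the floor, no fold was computed, and the gene was not tested because it failed the filter on low counts. Its level could not be told from 0 at this depth. Of the other thermogenic genes, Cidea had 15 to 92 counts per library, and Elovl3 had 0 to 8.

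Groups were compared gene by gene with edgeR's quasi-likelihood test, which passed 9 of the 10 members through its filter, with p-values adjusted over all genes tested by the Benjamini-Hochberg method at a threshold of 0.05. Between old PBS and young PBS, 0 of 9 members were called by edgeR and 0 by DESeq2. In this comparison edgeR called 10 of 15560 genes, 0.0643%, and DESeq2 called 1.42% of the genes it tested. At an unadjusted p under 0.05 edgeR held 1 of the 9 members, Plin4, against 5.91% of all genes. Old PBS was above young PBS in the fit for 6 members and below it for 3, with a median log2 fold change of 0.51 against 0.014 over all genes. All 9 tested members overlapped between these groups, while 10.5% of the 16124 genes kept over the 3 groups did not overlap.

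Plin4 averaged 99.5 ± 24.2 CPM (SD, n = 3) in young PBS and 182.6 ± 81.9 CPM (SD, n = 3) with age. Its log2 fold change was 0.87 (SE 0.32, 95% interval 0.14 to 1.61), with an edgeR p of 0.026 before and 0.725 after adjustment, so it did not pass. Adipoq averaged 13.9 ± 9.84 CPM (SD, n = 3) in young PBS and 19.7 ± 14.6 CPM (SD, n = 3) with age, a log2 fold change of 0.51 with an interval of -1.08 to 2.11 and an adjusted p of 0.994. The intervals of Plin1, Cidec, Retn and Cfd were about as wide, with log2 fold changes of 0.64, 0.76, 0.63 and -0.014. Without old PBS 3 the log2 fold change of Adipoq was -0.20 and that of Plin1 -0.050, so their sign rested on 1 library. Lep stood at 0.17, Fabp4 at -0.021 and Pparg at -0.38 on the same scale, each with an interval that held 0.

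Between old rMETRNL and old PBS, 0 of 9 members were likewise called by edgeR and 0 by DESeq2. Of the members edgeR held 0 at an unadjusted p under 0.05, against 8.07% of all genes. The background in this comparison was 0.108% of 15682 genes called by edgeR and 1.78% by DESeq2. Old rMETRNL was above old PBS in the fit for 3 members (Cfd, Fabp4 and Pparg) and below it for 6, with a median log2 fold change of -0.14 against -0.0056 over all genes. Again all 9 tested members overlapped between the groups, while 12.6% of the genes kept did not. The old PBS libraries are shared with the comparison by age, so opposite signs in the 2 comparisons are not independent.

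With treatment, Adipoq averaged 18.4 ± 10.6 CPM (SD, n = 3), and its log2 fold change against old PBS was -0.11 (SE 0.59, 95% interval -1.45 to 1.22, adjusted p = 0.972 by edgeR). Cfd averaged 71.7 ± 46.5 CPM (SD, n = 3) against 46.5 ± 27.2 CPM (SD, n = 3), a log2 fold change of 0.62 with an interval of -0.66 to 1.90. Plin4 averaged 108.3 ± 30.8 CPM (SD, n = 3), lower than old PBS by a log2 fold change of -0.76 with an interval of -1.51 to 0.0010 and an edgeR adjusted p of 0.620. Pparg averaged 6.12 ± 2.38 CPM (SD, n = 3) without and 8.84 ± 0.743 CPM (SD, n = 3) with treatment, a log2 fold change of 0.52 (SE 0.28) with an interval of -0.12 to 1.16 and an edgeR adjusted p of 0.682. Without old PBS 3, which had the highest Pparg of its group, the Pparg difference was 0.89 with an edgeR adjusted p of 0.036. That refit called 1560 genes in all, against 17 with every library kept, so the call was not particular to Pparg. The Adipoq difference turned to 0.60 in the same refit. Plin1, Cidec and Retn also turned positive without old PBS 3.

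Old rMETRNL and young PBS differ in both age and treatment. In this comparison 0 of 9 members were called by edgeR and 0 by DESeq2, where both tools called 0% of genes. At an unadjusted p under 0.05 edgeR held 0 members and 2.41% of all genes. Old rMETRNL was above young PBS for 8 members and below it for Lep, with a median log2 fold change of 0.32 against 0.00089 over all genes. Cidec had the largest difference at 0.62 (95% interval -0.51 to 1.74), followed by Cfd at 0.61 (-0.64 to 1.86). Without old rMETRNL 1, Cidec stood at -0.18 and Cfd at -0.037. All 9 tested members overlapped between the groups, while 7.07% of the genes kept did not.

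**Figure D2:**
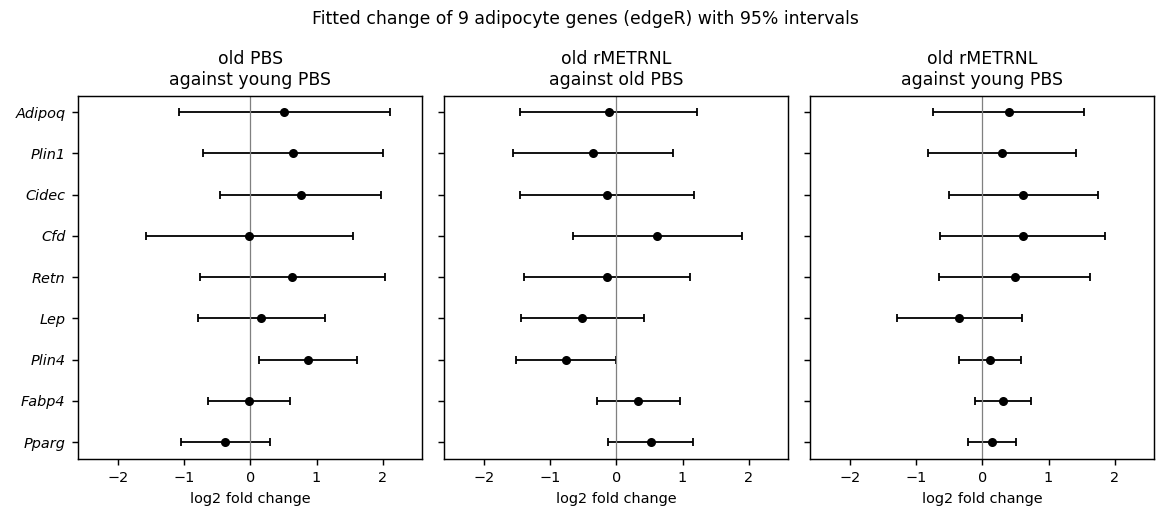
Log2 fold change (horizontal axis) of the 9 tested members in the 3 comparisons, as fitted by edgeR, with 95% intervals as bars. Adipoq, Plin1, Cidec, Cfd and Retn have the widest intervals, and only that of Plin4 between old PBS and young PBS lies wholly on one side of 0.

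For 7 of the members the libraries of each single group spread over a wider fold range than the group means did. The highest group mean of Adipoq was 1.42 times the lowest, while its libraries spread 3.27 to 6.36-fold within a group. For Cfd the ratio of group means was 1.54 and the spread within a group 3.71 to 7.58-fold. Plin4 and Pparg were the exceptions, with ratios of 1.83 and 1.45 that lay inside their spreads of 1.60 to 2.31-fold and 1.18 to 2.02-fold. The pooled SD within groups, in log2 CPM, was 1.20 for Adipoq, 1.23 for Cfd, 1.03 for Plin1, 0.98 for Cidec and 0.95 for Retn, against a median of 0.27 over 14169 genes with a mean of at least 1 CPM. Of those genes, 0.55% had a larger SD than Adipoq and 0.487% a larger SD than Cfd. The SD was 0.67 for Lep, 0.48 for Plin4, 0.38 for Fabp4 and 0.32 for Pparg, and 36.7% of genes exceeded that of Pparg.

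The wide members rose and fell together from library to library. Over the 9 libraries, log2 CPM of Adipoq had a Pearson r of 0.96 with Retn, 0.94 with Plin1, 0.94 with Cidec, 0.94 with Cfd and 0.80 with Lep. With 8 relations tested by exact two-sided permutation, the adjusted p was 2.2e-05 for Retn, whose raw p of 2.76e-06 is the smallest these permutations can give. It was 0.00056 for Plin1, 0.00054 for Cidec, 0.00068 for Cfd and 0.019 for Lep. Spearman's rho was 1.0 for Retn, 0.97 for Plin1, 0.95 for Cidec, 0.83 for Cfd and 0.77 for Lep, with adjusted permutation p-values of 4.41e-05, 0.00066, 0.00094, 0.017 and 0.034. All points share their library's scaling.

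These relations kept r at 0.76 to 0.99 without the 2 libraries farthest from the median of Adipoq, young PBS 3 and old PBS 2, and at 0.91 to 0.97 after group means were removed. Fabp4, Plin4 and Pparg differed from them, with r of 0.59, 0.28 and 0.25 to Adipoq and adjusted exact permutation p-values of 0.125, 0.526 and 0.526. Their rho was 0.48, 0.32 and 0.23, with adjusted permutation p-values of 0.258, 0.469 and 0.552. Without the same 2 libraries r was 0.11, 0.21 and 0.20, and with group means removed it was 0.62, 0.27 and 0.40. Whether these r differ from those of the other genes was not tested.

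Counts per Adipoq count in the same library restate these relations from the same counts, without any scaling. Adipoq itself ranged over 9.51-fold in CPM, which widens the ratio range of any steadier gene. Retn stood at 0.126 to 0.262 counts per Adipoq count, a 2.07-fold range, Cidec at 0.356 to 0.754, a 2.12-fold range, Plin1 at 0.564 to 1.36, a 2.41-fold range, and Cfd at 1.66 to 4.13, a 2.49-fold range. Lep ranged over 3.63-fold, from 0.134 in old rMETRNL 1 to 0.488 in old PBS 2. Plin4, Fabp4 and Pparg ranged over 7.80, 8.17 and 9.79-fold. Fabp4 reached 43.1 counts per Adipoq count in young PBS 3, where Adipoq was lowest, and fell to 5.28 in old PBS 3, where it was highest.

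**Figure D3:**
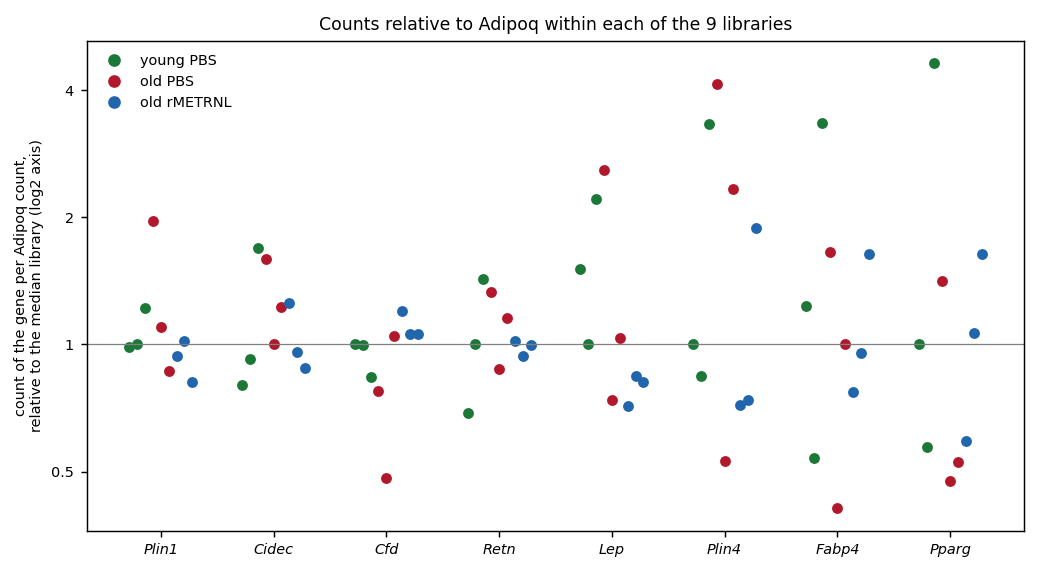
Counts of 8 members per Adipoq count in each of the 9 libraries, divided by the median library (log2 axis), coloured by group. Plin1, Cidec, Cfd and Retn stay within a 2.49-fold range each, while Plin4, Fabp4 and Pparg spread 7.80-fold or more.

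Adipoq, Plin1 and Cidec, which are transcribed almost only in fat cells, were summed to describe the fat cell RNA of a library. Lep, named above as such a gene too, was not in the sum. Its group means were 3.35 CPM in young PBS, 3.75 CPM in old PBS and 2.65 CPM in old rMETRNL. The sum was 29.8, 49.0 and 9.53 CPM in young PBS 1, 2 and 3, 17.8, 76.9 and 39.4 CPM in old PBS 2, 3 and 4, and 66.0, 34.3 and 17.9 CPM in old rMETRNL 1, 2 and 3. The group means were 29.5 ± 19.8, 44.7 ± 29.9 and 39.4 ± 24.5 CPM (SD, n = 3 each), closer to each other than the libraries within any group. Without the highest library of each group (young PBS 2, old PBS 3 and old rMETRNL 1) the means were 19.7, 28.6 and 26.1 CPM. More fat cells and more RNA per fat cell cannot be told apart in bulk RNA, and whether the fat lay within the muscle or was attached to its surface was not tested.

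Summed markers of resident muscle cells varied much less, though not every single gene of these lists did. The 8.07-fold range of the summed Adipoq, Plin1 and Cidec compares with 1.83-fold for 8 fibro-adipogenic progenitor markers such as Pdgfra (1674 to 3067 CPM), 1.75-fold for 8 macrophage markers (1247 to 2188 CPM), 1.63-fold for 6 endothelial markers (268 to 435 CPM) and 1.54-fold for 7 muscle fibre markers. Schwann cell markers ranged over 1.87-fold (58.0 to 108 CPM). In old PBS 3, with the most fat cell RNA, the progenitor sum was the lowest at 1674 CPM and the muscle fibre sum the lowest at 58601 CPM, with the abundant genes Dcn, Gsn, Acta1, Ckm and Myh4 each at their lowest. Other genes of the lists differed, and the following were named after their values were seen. In old PBS 3 the progenitor gene Ly6a, at 92.6 CPM, was the third highest of the 9 libraries. The embryonic myosin Myh3 and the neonatal myosin Myh8 were the highest of all libraries there, at 1256 and 1760 CPM. Their lowest levels were 55.5 and 123 CPM, both in old PBS 4, so these fibre genes spread more widely than the fat cell sum. Young PBS 3, with the least, stood at 1868 CPM for progenitors and at 2031 CPM for macrophages.

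Summed markers of mesothelium, neutrophils, blood and skin keratinocytes varied more widely. Mesothelium was represented almost only by Msln, since Upk3b and Wt1 had 0 counts in all 9 libraries, and its 4 markers summed to 14.7 CPM in old PBS 3 and to 2.03 to 5.94 CPM elsewhere. Neutrophil markers ranged from 0.696 to 9.998 CPM and were highest in old PBS 4. DESeq2 called S100a8 and S100a9 higher in old PBS than in young PBS, while the adjusted p of S100a8 was 0.095 in edgeR and S100a9 did not pass its filter. Blood markers ranged from 51.7 CPM in young PBS 3 to 981 CPM in old PBS 4. The keratinocyte peak of 127 CPM was in young PBS 2, which had the most Adipoq of its group. The part of these cells and tissues in the levels of the adipocyte genes was not tested.

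**Figure D4:**
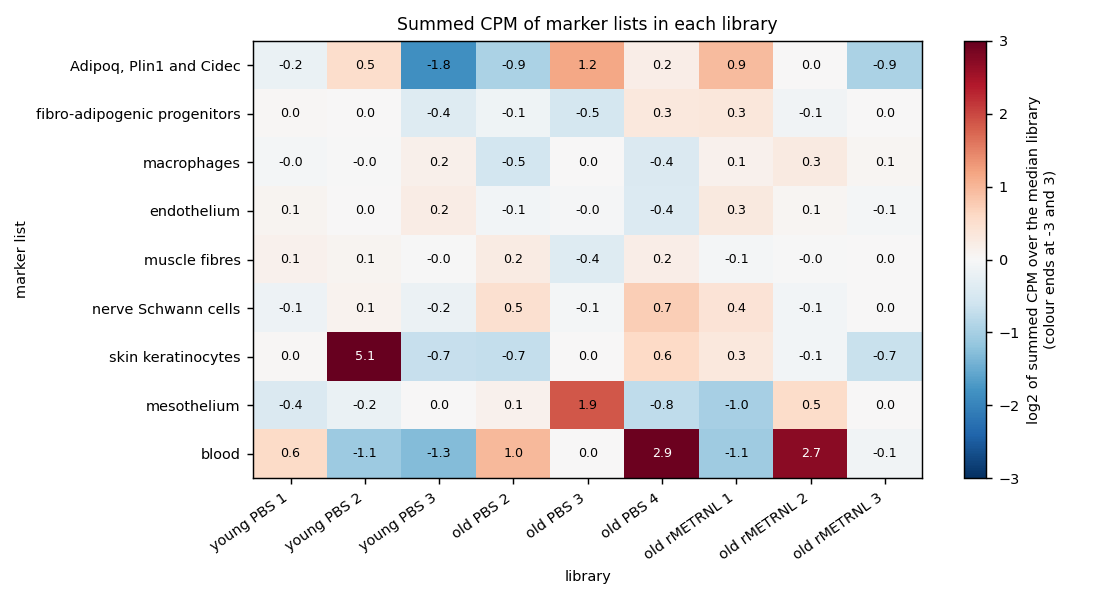
Log2 of the summed CPM of each marker list (rows) over its median library, for the 9 libraries (columns); colour runs from blue, below the median, to red, above it. The top row, Adipoq, Plin1 and Cidec, spreads 8.07-fold, while progenitor, macrophage, endothelial and fibre rows stay within 1.83-fold.

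Further genes of the fat cell programme were read from 5 lists, and edgeR called 0 of their genes in any comparison. Among the 10 adipogenic transcription factors, Rxra, the partner of PPAR gamma, averaged 105.3 CPM over the 9 libraries, Srebf1 55.9 CPM, Cebpb 38.5 CPM and Cebpa 38.5 CPM. Between old PBS and young PBS 6 of the 10 had a positive sign and 4 a negative one. At an unadjusted p under 0.05 there were 0, against 5.91% of all genes. Between old rMETRNL and old PBS 3 were positive and 7 negative. In each direction 1 had an unadjusted p under 0.05, against 8.07% of all genes. The summed level of these factors spread only 1.28-fold over the libraries.

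The 23 lipid storage and lipolysis genes were led by Lpl (lipoprotein lipase, 517.6 CPM), Gpd1 (433.9 CPM), the fatty acid transporter Cd36 (242.9 CPM) and the desaturase Scd1 (143.4 CPM). All 23 were tested, with 15 positive and 8 negative signs between old PBS and young PBS, and 2 with a positive sign at an unadjusted p under 0.05. Between old rMETRNL and old PBS 8 were positive and 15 negative, of which 1 and 3 had an unadjusted p under 0.05. DESeq2 called 1 of them, the muscle and liver perilipin Plin5, lower in old rMETRNL than in old PBS, by a log2 fold change of -1.82 in edgeR with an adjusted p of 0.446 there and 0.034 in DESeq2. Plin5 counts were 132, 136 and 471 in old PBS 2, 3 and 4 and 56, 49 and 149 in old rMETRNL 1, 2 and 3, and the groups overlapped.

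Of 12 adipocyte surface and small proteins, the most abundant was Car3, a carbonic anhydrase of fat cells and slow muscle fibres, followed by the insulin-regulated glucose transporter Slc2a4 (287.4 CPM), Nnat (7.16 CPM) and Sncg (5.30 CPM). Car3 stood at 1132, 1373 and 473 CPM in young PBS, 3037, 2399 and 4403 CPM in old PBS and 928, 866 and 981 CPM in old rMETRNL. Old PBS lay above all 6 other libraries. The log2 fold change was 1.72 (SE 0.43) between old PBS and young PBS, with an adjusted p of 0.299 in edgeR and 0.00040 in DESeq2, and -1.83 (SE 0.30) between old rMETRNL and old PBS, with an adjusted p of 0.065 in edgeR and 3.12e-10 in DESeq2. The fat cell genes Adipoq and Plin1 showed no such separation of old PBS. Between old PBS and young PBS, 8 of the 10 tested genes of this list were positive and 2 negative. Of these, 1 positive gene had an unadjusted p under 0.05, against 5.91% of all genes. Between old rMETRNL and old PBS, 2 of 11 were positive and 9 negative. Of these, 2 negative genes had an unadjusted p under 0.05, against 8.07% of all genes. Other genes of this list were low, as for the fat cell receptors Adrb3 with 1 to 22 counts and Hcar1 with 2 to 33 counts. Both were highest in old PBS 3, and so were Acvr1c and Mrap. The rest of the list peaked elsewhere in CPM. Trarg1, Slc7a10 and Tshr were highest in old rMETRNL 1, Car3, Slc2a4, Adig and Sncg in old PBS 4, and Nnat in young PBS 1.

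The adipokine receptors Adipor1, Cdh13, Adipor2 and Lepr averaged 206.6, 156.3, 116.5 and 3.94 CPM, and 0 of the 4 had an unadjusted p under 0.05 in any of the 3 comparisons. Of the 9 thermogenic fat genes, 7 were tested, led by the mitochondrial subunits Cox7a1 (258.8 CPM) and Cox8b (250.1 CPM), which muscle fibres also make, then Ppargc1a (37.4 CPM) and Dio2 (17.3 CPM). None of the 7 was called by edgeR or DESeq2 in the 3 comparisons. Only between old rMETRNL and young PBS did 1 have an unadjusted p under 0.05, with a negative sign, against 2.41% of all genes.

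The genes with the pattern most like the mean standardised log2 CPM of Adipoq, Plin1 and Cidec over the 9 libraries were ranked among 13973 genes by Pearson r, as a description. The first was Cdo1, cysteine dioxygenase, with r = 0.95, then Hp, the haemoglobin-binding haptoglobin, with 0.93, the amino acid transporter Slc36a2 with 0.92 and Rasl11a with 0.91. Faap20, Hp1bp3, Kcnab2, Oasl1, Mmd and Wfdc21 followed with 0.90 to 0.88. Hp had 570, 907 and 228 counts in young PBS, 192, 2161 and 398 in old PBS and 1826, 748 and 450 in old rMETRNL. Old PBS 3 and old rMETRNL 1 were high and young PBS 3 and old PBS 2 low, as they were for Adipoq. Retn would have ranked above all of these at 0.98, and Cfd and Lep stood at 0.89 and 0.85. Of the listed fat cell genes, Pck1, which makes glycerol for triglyceride, had r = 0.87, the activin receptor Acvr1c 0.85 and the hormone-sensitive lipase Lipe 0.79, 3 of the highest values and named after they were seen. The lists they came from were not uniform. Of the 23 lipid genes 16 had r above 0 and 7 below, with a median of 0.18 and the lowest, -0.24, for Gpd1. Of the 8 surface and small proteins with enough counts 7 had r above 0 and 1 below, with a median of 0.51, and the lowest was -0.34, for the glucose transporter Slc2a4.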

How the data were processed

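RNA of injured muscle was measured in 9 libraries of 3 groups of 3, grouped by the titles, age and treatment labels. The authors deposited raw counts, reads per Ensembl gene, with replicates kept apart and no normalization. The submitters' processing notes name STAR, featureCounts and mm9, with no versions, and the study names the NEBNext Ultra kit and DESeq2. The strand setting is not given in the sources used here. The file holds no coordinates, and those printed come from the GRCm38 annotation, joined by gene identifier (54495 of 54532 matched).

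The members, lists and tests were chosen with earlier results of these data known. Groups were compared in pairs on 6 libraries with edgeR 4.0.16 in R 4.3.3 (filterByExpr, TMM, glmQLFit, glmQLFTest, Benjamini-Hochberg, threshold 0.05). Intervals cover 95%. DESeq2 1.42.0 with its defaults was an alternative. CPM used TMM factors of all 9 libraries, and log2 CPM a prior count of 2. The fit was run on simulated counts with less spread than was fitted to these data, so this gives no measure of its performance here. The labels give no shared origin for a replicate number, so the main fit used no block.

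Named were all members, up to 4 genes of highest mean CPM and any gene called by edgeR of each list (adipogenic factors, lipid enzymes, surface proteins, receptors and thermogenic genes, with marker lists, given mainly as sums, for progenitors, macrophages, neutrophils, endothelium, fibres, keratinocytes, mesothelium, Schwann cells, brain, liver and blood), and the 10 genes most like Adipoq, Plin1 and Cidec with a mean count of at least 20. Plin5, S100a8, S100a9, Cidea, Elovl3, Adrb3, Hcar1, Pck1, Acvr1c, Lipe, Mrap, Trarg1, Slc7a10, Tshr and Adig were named after their values were seen. Protein sequences were not analysed here, and 1 further marker list is not reported here. The alternatives were size factors of DESeq2, no filter, a minimum of 10 counts per gene and library, the DESeq2 test, a fit of all 9 libraries, a replicate block and leaving out each library.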

Additional observations from a re-analysis of the deposited data

How the results depend on the processing

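Of 162 member fold changes refitted with all libraries kept, 160 kept their sign and side of the threshold. Cfd between old PBS and young PBS turned to 0.023 (log2) with a replicate block, and Cfd between old rMETRNL and young PBS, 0.61, passed without a filter on low counts (adjusted p = 0.0015 by edgeR), and the cause was not tested. The block changed no other member call. Genes called between old PBS and young PBS numbered 354 without a filter, 3 with at least 10 counts in every library, 265 by DESeq2 and 63 with all 9 libraries fitted. Between old rMETRNL and old PBS they numbered 740, 1, 354 and 71 under the same settings and 65 with the replicate block. Between old rMETRNL and young PBS 132 were called without a filter. The causes of these shifts were not tested. Same-numbered libraries of different groups deviated from their group means with correlations of -0.316 to 0.412. Old rMETRNL and young PBS, which share 3 numbers, had correlations of -0.178 to 0.023 with 0 of 6 libraries closest to their own number. The pairs of young PBS and old PBS, which share 2 numbers, had 0.114 and 0.412. The labels give no shared origin for a number, so the numbers were not taken as pairs.

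With each library left out in turn, genes called ranged from 2 to 401 between old PBS and young PBS, from 3 to 1560 between old rMETRNL and old PBS, both highest without old PBS 3, and from 0 to 1 between old rMETRNL and young PBS. Of 162 member fold changes 133 kept sign and call, 28 changed sign and 1, Pparg without old PBS 3, passed. In log2, between old PBS and young PBS, Adipoq ranged from -0.20 to 1.11, Plin1 from -0.050 to 1.21, Cfd from -0.49 to 0.61, Lep from -0.18 to 0.40 and Fabp4 from -0.26 to 0.20. Between old rMETRNL and old PBS, Adipoq ranged from -0.66 to 0.60, Plin1 from -0.89 to 0.34, Cfd from -0.025 to 0.96, Retn from -0.73 to 0.32 and Cidec from -0.94 to 0.35. Between old rMETRNL and young PBS, Adipoq ranged from -0.14 to 1.01, Plin1 from -0.25 to 0.87, Plin4 from -0.088 to 0.33, Cfd from -0.037 to 1.24, Retn from -0.099 to 1.25 and Cidec from -0.18 to 1.18. Group means of the summed Adipoq, Plin1 and Cidec moved by less than 1 SD under every scaling. With 3 libraries per group, leaving 1 out cannot move a mean by 1 SD, so that rule gives no support there. With each library left out, these means ranged from 19.7 to 39.4 CPM in young PBS. They ranged from 28.6 to 58.1 CPM in old PBS and from 26.1 to 50.1 CPM in old rMETRNL. Lep and Retn rest on 17 to 128 counts per library, and Ucp1 on 4 in all.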
